A study of Mus musculus with 17 samples.

Results

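The genes for opioid peptides and for their receptors are described here across one H3K27ac peak list of mouse hypothalamus. The 7 genes were taken by name: the peptide precursors Penk, Pdyn and Pnoc and the receptors Oprm1, Oprd1, Oprk1 and Oprl1. Every peak that overlapped the RefSeq span of one of them, or the 20 kb on either side of it, was counted, which gave 54 of the 183678 peaks in the list. No peak was counted for more than 1 gene. H3K27ac, acetylation of lysine 27 on histone H3, marks active promoters and enhancers. The assay was CUT&Tag: a Tn5 transposase fused to protein A binds the antibody on the marked chromatin and cuts and tags the DNA there. The list covers 3 bulk samples of dissected hypothalamus together, titled as biological replicates. The remaining samples of the 17 are Paired-Tag sub-libraries (7 DNA, 7 RNA), from a single-nucleus assay of histone marks (H3K27ac and H3K27me3) together with RNA, and were not analysed here. The labels used here give the tissue and the antibody and name no strain, age, sex or treatment, so the list holds 1 condition. It carries no value per sample and no read counts. No spread between animals can be given, no test between genes was made, and the depth behind each peak is unknown.

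Opioid peptides are cut from larger precursors. Proenkephalin (Penk) yields the enkephalins, prodynorphin (Pdyn) the dynorphins and neo-endorphins, and prepronociceptin (Pnoc) nociceptin. They act on class A receptors coupled to inhibitory G proteins: the mu receptor (Oprm1), the delta receptor (Oprd1), the kappa receptor (Oprk1) and the nociceptin receptor (Oprl1). Enkephalins act mainly at delta and mu receptors, dynorphins at kappa and nociceptin at its own receptor. In the hypothalamus these systems are known for roles in feeding, stress, fluid balance, pain and the control of gonadotropin release, the last through the kisspeptin neurons of the arcuate nucleus that also make dynorphin.

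All 7 genes carried H3K27ac at a start or at an end. RefSeq transcript starts were matched for Pdyn, Oprm1, Oprd1 and Oprl1, and either end of the span was used for Penk, Pnoc and Oprk1. By this rule, with a window of 1 kb on either side, 68.7% of the 21887 protein-coding genes also had a peak (68.3% of those with a listed start and 70.4% of those without), so 7 of 7 is not far from the background. A peak in the span or its 20 kb flanks was present for 81.5% of protein-coding genes and for all 7 members. The fold enrichment of a peak, a linear ratio over background that the authors deposited with it, covered a wide range among the genes. At the strongest start peak it was 11.8 for Oprm1 and 11.2 for Oprk1. It was 7.42 for Oprd1, 5.39 for Pdyn and 4.97 for Oprl1. It was lowest at Pnoc, with 4.61, and at Penk, with 4.43. The median over marked protein-coding genes was 8.84, so 2 members lay above it and 5 below. In 6 of the 7 genes a peak within 1 kb of a start or end was also the strongest of the locus, the exception being Penk. At Oprl1 this was a separate upstream peak (4.97), and the peak over its starts had 4.74. The share of all protein-coding genes for which the same holds was not computed, so this count has no background beside it.

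**Figure D1:**
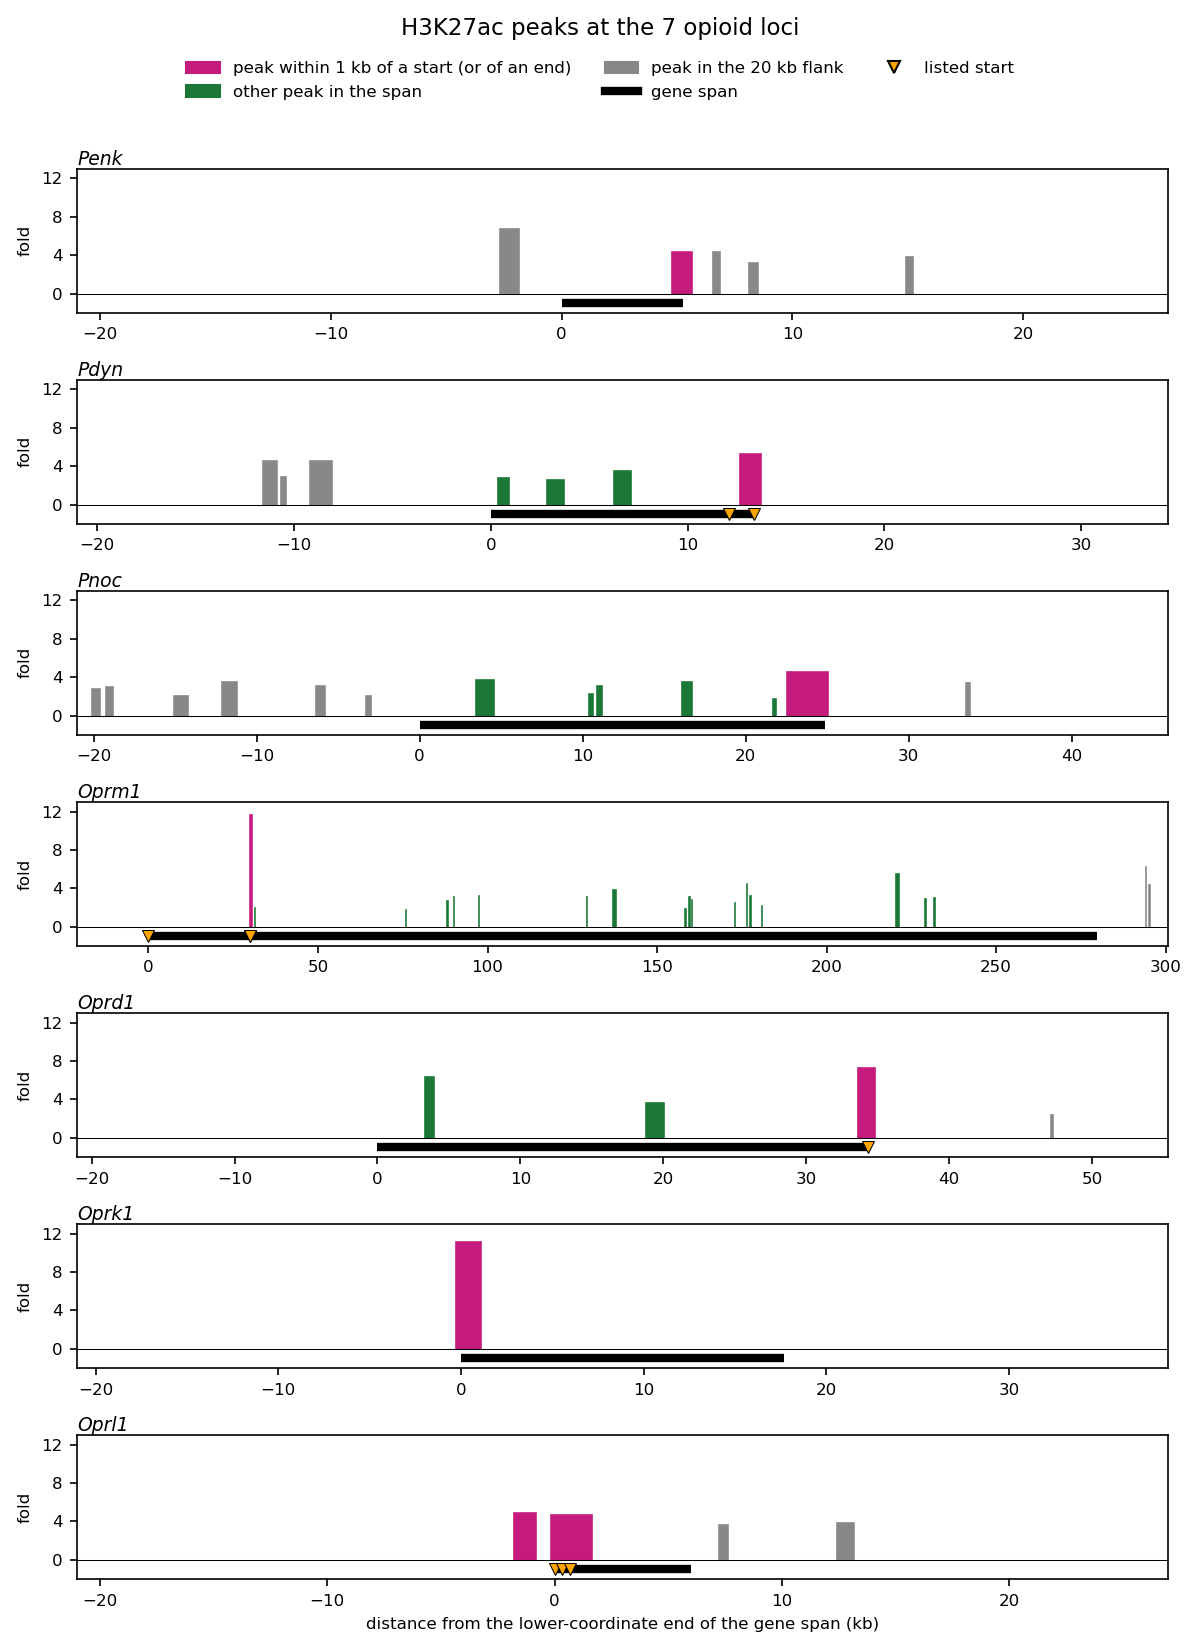
Each panel shows 1 opioid locus, with distance from the lower-coordinate end of the gene span in kb on the horizontal axis and the fold enrichment of each peak on the vertical axis. Bars are drawn at the position and width of the peaks, black lines are gene spans and triangles are listed starts. Oprk1 has 1 bar in the whole window, Oprm1 has 20, and the tallest Oprm1 bar stands at the inner of its listed starts and not at the outer one.

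The summits lay close to the starts. Of the 8 peaks within 1 kb of a start or end, 7 had their summit within 150 bp of it, between 7 bp at Oprd1 and 124 bp at Oprm1. The remaining one, upstream of Oprl1, had its summit 1142 bp away. The same share over all start peaks of the list was not computed, so this closeness cannot be called particular to these genes. The 250 bases before the listed starts are shown for 5 starts, because they set a marked start of Oprm1 beside an unmarked one and the GC-rich start of Oprd1 beside the others (RefSeq, GRCm38.p6, 5′ to 3′ on the strand of the gene). Capitals mark matches on either strand to the GC box GGGCGG or the TATA element TATAAA.
Oprm1 outer start, chr10:6758343-6758592, plus strand: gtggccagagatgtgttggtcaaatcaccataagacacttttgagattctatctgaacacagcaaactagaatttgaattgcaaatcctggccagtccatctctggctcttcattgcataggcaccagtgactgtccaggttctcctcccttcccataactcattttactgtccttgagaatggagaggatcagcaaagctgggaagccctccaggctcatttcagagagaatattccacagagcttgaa
Oprm1 inner start, chr10:6788320-6788569, plus strand: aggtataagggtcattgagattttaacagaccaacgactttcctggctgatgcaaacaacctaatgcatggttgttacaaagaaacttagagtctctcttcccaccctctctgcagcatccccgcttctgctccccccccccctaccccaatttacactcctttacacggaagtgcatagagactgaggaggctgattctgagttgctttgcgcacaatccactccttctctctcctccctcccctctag
Oprd1, chr4:132144487-132144736, minus strand: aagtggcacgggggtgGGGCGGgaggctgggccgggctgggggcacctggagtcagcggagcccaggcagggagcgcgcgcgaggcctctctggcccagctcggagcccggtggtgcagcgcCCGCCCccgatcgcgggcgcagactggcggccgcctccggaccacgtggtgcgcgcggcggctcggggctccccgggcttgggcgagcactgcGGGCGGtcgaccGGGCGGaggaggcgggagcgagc
Pdyn outer start, chr2:129699939-129700188, minus strand: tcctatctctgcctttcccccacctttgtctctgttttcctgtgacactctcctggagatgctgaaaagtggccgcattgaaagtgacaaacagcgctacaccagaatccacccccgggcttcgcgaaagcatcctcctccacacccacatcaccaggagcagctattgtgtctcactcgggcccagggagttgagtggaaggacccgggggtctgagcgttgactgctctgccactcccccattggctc
Oprl1 outermost start, chr2:181714766-181715015, plus strand: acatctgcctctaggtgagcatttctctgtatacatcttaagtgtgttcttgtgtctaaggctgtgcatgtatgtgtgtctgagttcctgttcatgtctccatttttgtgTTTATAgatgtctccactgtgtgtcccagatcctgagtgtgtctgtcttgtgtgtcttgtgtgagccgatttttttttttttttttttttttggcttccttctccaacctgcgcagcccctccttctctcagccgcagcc

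These windows differed in base composition, and the highest fold did not go with the highest CpG content. The Oprd1 window had 80.0% G and C and a ratio of observed to expected CpG of 0.882. It exceeded 98.8% of 32841 windows of the same length in GC content and 87.1% in CpG ratio. The inner Oprm1 window had 50.0% G and C, 4 CpG and a ratio of 0.287, below the median of 0.374 over all windows, and 249 of its 250 bases lay in the strongest peak of the 7 genes. The outer Oprm1 window had no CpG, and no base of it lay in a peak. The outer Pdyn window, with a ratio of 0.406, lay wholly in a peak, and 197 bases of the outermost Oprl1 window did. The GC box occurred 4 times in the Oprd1 window, at positions -234 to -229, -128 to -123, -35 to -30 and -23 to -18 counted from the start, and in none of the other windows of these genes. Of all windows, 32.7% held one. A TATA element lay at -140 to -135 of Oprl1, on the opposite strand, against 12.4% of all windows. The cyclic AMP response element TGACGTCA (1.55% of all windows), the enkephalin variant TGCGTCA (1.75%) and the AP-1 motif TGANTCA (6.75%) were not in these letters. With shares this low, absence from so few windows says little. Penk, Pnoc and Oprk1 had no listed start and so no window that could be searched. The E-box CANNTG, which may overlap other motifs and was held by 66.2% of all windows, was present in 2 copies in the Oprd1 window, in 1 copy in the outermost Oprl1 window and in 4 copies in the innermost Oprl1 window. Such matches describe the letters only.

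Penk was the only one of the 7 genes whose strongest peak was not within 1 kb of a listed start or, where none was matched, of an end. The span on chromosome 4 (4133536 to 4138815) had 5 peaks around it. The strongest, with a fold of 6.86 and a −log10 q of 45.8, covered 892 bp at chr4:4130812-4131703, 1833 bp beyond the lower end, and exceeded 91.5% of all peaks in fold. The peak over the higher end, chr4:4138278-4139199, had a fold of 4.43, a −log10 q of 25.4 and a summit 69 bp from that end. Outside that end the fold was 4.40 at a peak 1239 bp away and 3.32 at one 2785 bp away. Another peak, 9590 bp away with a fold of 3.90, lay within 1 kb of an end of the long noncoding RNA gene A830012C17Rik. No peak lay wholly inside the Penk span, and all 5 had a fold above the list's median of 3.18. The next peaks beyond the window were 110262 bp below and 54203 bp above the span.

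Pdyn had its mark at the outer start and at a group of peaks past the other end of the gene. The span on chromosome 2 (129686549 to 129699938, read from the higher coordinate) had 7 peaks. The start peak, chr2:129699171-129700266, had a fold of 5.39 and a −log10 q of 37.6, with its summit 65 bp upstream of the outer start. The inner listed start, 1280 bp from the outer one, lay 513 bp outside that peak. Inside the gene the fold was 3.61, 2.65 and 2.91 at 3 peaks with summits 5692, 8516 and 11476 bp downstream of the inner listed start. Beyond the 3′ end, 3 peaks had folds of 4.68, 2.94 and 4.65, with the nearest 8040 bp and the farthest 10874 bp from the span. The strongest of them was 1199 bp wide. No other gene of the RefSeq table lay in the Pdyn window.

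Pnoc had the widest start peak of the 7 genes and, with flanks of 20 kb, the most peaks per length. Its span on chromosome 14 (65400673 to 65425564) and flanks held 13 peaks, or 2.00 per 10 kb, and peaks covered 14.5% of that window. The peak over the higher end, chr14:65423133-65425747, was 2615 bp wide, wider than 99.8% of all peaks, with a fold of 4.61, a −log10 q of 50.1 and a summit 40 bp from that end. A peak with its summit 3601 bp inside the lower end followed (chr14:65404069-65405230), with a fold of 3.86 and a −log10 q of 39.2. The other 4 peaks wholly inside the span had folds of 1.80 to 3.61. Of the 7 flank peaks, 6 lay in the span of Zfp395, a zinc finger gene that ends 1743 bp below Pnoc, and had folds of 2.14 to 3.56. The remaining one, 8544 bp above the span, had a fold of 3.47. Zfp395 itself had a fold of 8.45 at an end. Whether they belong to Pnoc or to Zfp395 cannot be told apart from position alone. With each peak given to the protein-coding gene nearest to its summit, Pnoc kept 7 peaks, or 1.08 per 10 kb, below Pdyn (1.31) and Penk (1.10). Without flanks Pnoc had 2.41 per 10 kb and Pdyn 2.99.

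Oprm1, which encodes the main receptor for morphine, had the strongest and most significant peak of the 7 genes, and it stood well inside the span. The gene covers 279617 bp of chromosome 10 (6758593 to 7038209), and 3 starts were matched, at 6758593, 6788570 and 6788576. The peak chr10:6788321-6789224 covered the inner pair, with a fold of 11.8, a −log10 q of 214 and a summit 124 bp downstream of the nearer start. It exceeded 97.7% of all peaks in fold. The outer start, 29977 bp upstream, had no peak within 1 kb, and the nearest peak to it was that same peak, 29728 bp away. A small peak with a fold of 2.10 followed, with its summit 1214 bp downstream of the inner pair.

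The remaining Oprm1 peaks were weaker and mostly lay in another gene. Of the 20 peaks, 14 lay in the span of Ipcef1, which encodes an interaction protein of cytohesin exchange factors and overlaps the Oprm1 span over 152431 bp. Among them were the second and the third strongest of the window, with folds of 6.28 (chr10:7052444-7052923) and 5.56 (chr10:6978845-6980063). The latter lay within 1 kb of a listed start of Ipcef1. The next 2 by fold, with 4.55 and 4.41, also lay in the Ipcef1 span. Outside the Ipcef1 span, 6 peaks lay in Oprm1. Besides the start peak, their folds were 1.88, 2.10, 2.74, 3.25 and 3.32, so the start peak was 3.54 times the next. Peaks with folds of 1.88 and 1.95 had −log10 q values of 1.69 and 1.99, and only 0.00762% and 0.0261% of the list's peaks had a lower one. With 20 peaks Oprm1 exceeded 89.3% of protein-coding genes in count, but in its decile of gene length, where the median was 29 peaks, it exceeded 37.3%.

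Oprk1, the receptor for dynorphins, had 1 peak, and that peak stood far from any other. It lay over the lower end of the gene (chromosome 1, 5588450 to 5606134) at chr1:5588111-5589532, with a fold of 11.2, a −log10 q of 155, a width of 1422 bp and a summit 26 bp inside that end. No other peak of the list lay in the gene or within 20 kb of it. The next peaks were 326250 bp below and 325920 bp above, while the median distance to the nearer neighbour was 1446 bp over all peaks. Of 183636 peaks with a neighbour on both sides, 130, or 0.0708%, were at least as isolated, with a median fold of 4.01, and 18 of these had a fold as high or higher. Of all protein-coding genes, 1258 (5.75%) had exactly 1 peak in their window. Their median fold was 6.50, and in 29.5% of them, Oprk1 included, it was as high as at Oprk1 or higher. These distances are between peaks of the list analysed here. Its peak names run to 295763, and 112085 of those numbers are borne by no peak in it. Where any such peaks lay, and why they are absent, is not known here, so a distance without peaks need not be a distance without signal.

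Oprd1, the delta receptor gene, had a strong peak at its start and another near its far end. The gene covers 34299 bp of chromosome 4 (132110188 to 132144486, read from the higher coordinate) and had 4 peaks. The start peak, chr4:132143731-132144971, had a fold of 7.42 and a −log10 q of 53.2, with its summit 7 bp upstream of the start. Another peak, chr4:132113415-132114119, had a fold of 6.46 and a −log10 q of 42.2, with its summit 30668 bp downstream of the start and 3630 bp from the lower end of the span. In fold these exceeded 92.8% and 90.3% of all peaks. A peak between them had a fold of 3.68 and was 1306 bp wide, and one 12752 bp upstream of the gene had a fold of 2.53. The gene table gives no exons, so the peaks inside these genes could not be called exonic or intronic.

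Oprl1, the nociceptin receptor gene, had a pair of peaks around its starts with a modest fold and a high significance. The span on chromosome 2 (181715000 to 181720985) had 3 listed starts spaced 332 and 342 bp apart, and the peak chr2:181714819-181716635 covered all of them. It was 1817 bp wide, with a fold of 4.74 and a −log10 q of 86.7. A separate peak upstream, chr2:181713184-181714202, had a fold of 4.97 and a −log10 q of 89.3. Beyond the gene, 2 peaks 1208 and 6421 bp past its higher end had folds of 3.70 and 3.98. Rgs19, a regulator of G protein signalling whose span ends below Oprl1, had a start peak with a fold of 6.31.

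Fold and significance ordered the genes differently. By the −log10 q of the strongest start peak the order was Oprm1 (214), Oprk1 (155), Oprl1 (89.3), Oprd1 (53.2), Pnoc (50.1), Pdyn (37.6) and Penk (25.4), so Oprl1 moved from rank 5 by fold to rank 3. Peaks of the whole list whose fold lay within 0.05 of the Oprl1 peak over the starts had a median −log10 q of 24.5, and the Oprl1 value was 3.54 times that. For the stronger Oprl1 peak upstream, which set its place in the order, the ratio was 2.61. It was 1.83 for the Pnoc start peak and 1.11 for that of Pdyn. It was 1.03 at Penk, 0.768 at Oprm1, 0.713 at Oprd1 and 0.595 at Oprk1. With 1 value per peak and no replicates, it cannot be said which neighbours in either order differ beyond their error.

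**Figure D2:**
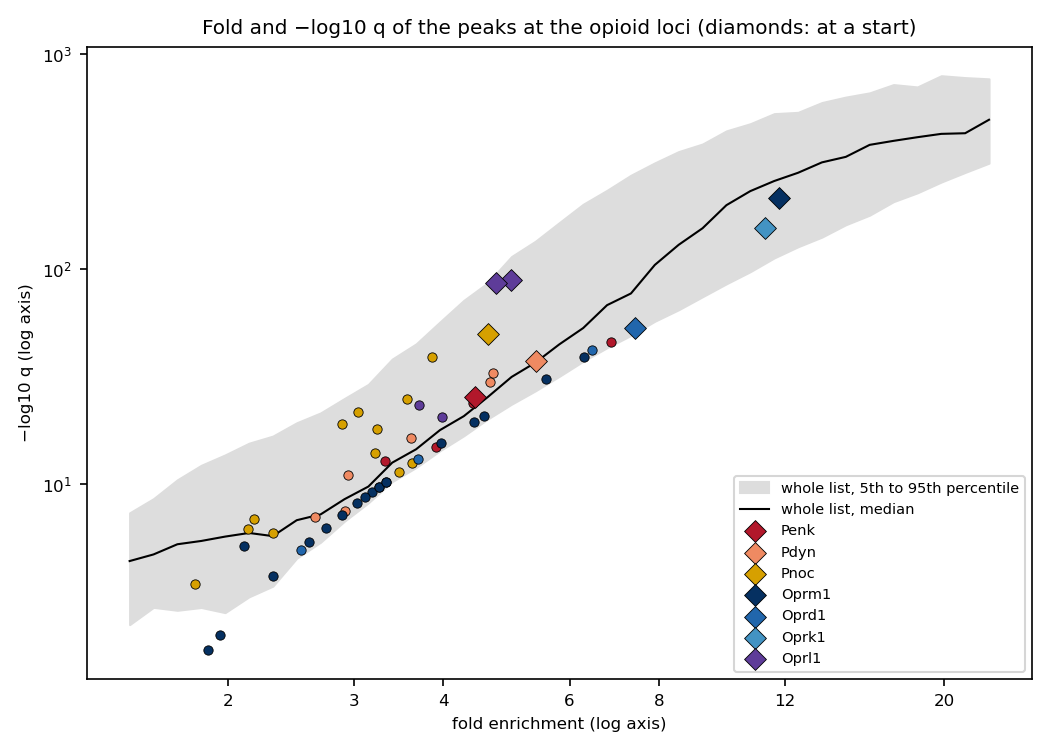
Fold enrichment (horizontal log axis) against −log10 q (vertical log axis) for the 54 peaks at the opioid loci, coloured by gene, with diamonds for peaks within 1 kb of a start or end. The line and band give the median and the range from the 5th to the 95th percentile over the whole list, and the pair of Oprl1 diamonds lies well above the line while those of Oprk1, Oprm1 and Oprd1 lie below it.

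With flanks of 20 kb, the 3 precursor genes had more peaks per length than the 4 receptor genes, but this order depended on the flank and on the peaks counted. Peaks per 10 kb were 2.00 at Pnoc, 1.31 at Pdyn and 1.10 at Penk, all above the median of 0.943 over protein-coding genes. They were 0.870 at Oprl1, 0.626 at Oprm1, 0.538 at Oprd1 and 0.173 at Oprk1, all below it. The share of the window covered by peaks was 14.5% at Pnoc, 10.8% at Pdyn and 6.50% at Penk. It was 8.83% at Oprl1, 4.70% at Oprd1, 3.63% at Oprm1 and 2.47% at Oprk1, beside a median of 7.20% over protein-coding genes. Within deciles of gene length, peaks per 10 kb exceeded those of 86.3% of genes at Pnoc, 60.5% at Pdyn and 54.0% at Penk. The values were 43.7% at Oprl1, 32.0% at Oprm1, 27.1% at Oprd1 and 18.2% at Oprk1. The groups did not overlap in peaks per 10 kb with flanks of 20 kb or without flanks, and overlapped in the share covered, where Oprl1 lay above Penk. With flanks of 10 kb they overlapped in peaks per 10 kb too, where Oprl1, with 1.54, lay just above Pdyn. With flanks of 50 kb, Oprl1 (1.32) and Oprd1 (0.745) lay above Pdyn (0.706) and Penk (0.475). Among peaks of at least the median −log10 q, Oprl1 (0.870) lay above Pdyn (0.749), and among peaks in the top quartile by fold Pnoc had the lowest value of all 7 genes, 0.154. The split was seen in the data and not tested. Taking away peaks in other genes' spans would leave 33 of the 54 peaks.

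**Figure D3:**
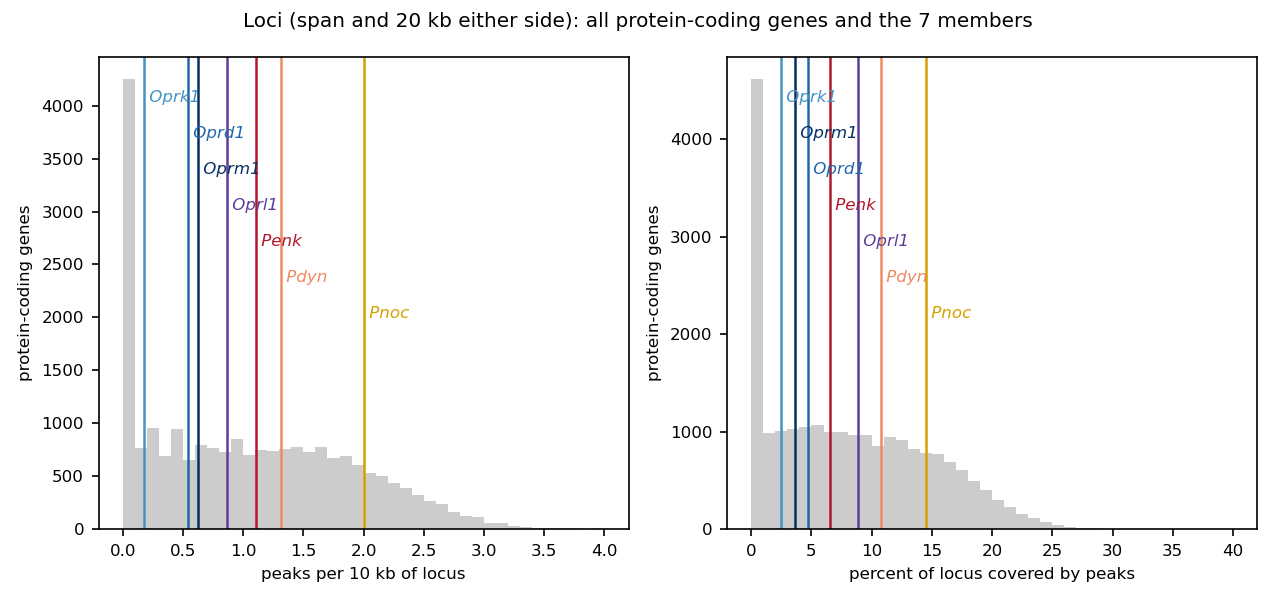
Number of protein-coding genes (vertical axis) by peaks per 10 kb (left) and by the percent of the window covered by peaks (right), with windows of the gene span and 20 kb on either side. Coloured lines mark the 7 opioid genes, from Oprk1 at 0.173 peaks per 10 kb to Pnoc at 2.00.

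Genes known for making, breaking down or relaying opioid signals were all marked by the rule used for the members: 64 of 64 in 6 lists had a peak within 1 kb of a start or end, beside 68.7% of all protein-coding genes. That background was 15.1% in the shortest decile of gene length and 89.4% in the longest, and the lists were not matched for length. Of the genes named below, Cpe, Prep and Crem had no listed start and were read at either end of the span. Other genes of these lists were read that way too, so the list medians mix both rules. All 10 genes of peptide processing and release were marked, with a median fold of 9.47. They included Chgb, a granin of secretory granules (13.9), the carboxypeptidase gene Cpe (12.3) and Pcsk1, a convertase that cuts precursors (10.2). All 9 genes of peptide breakdown were marked, with a median of 8.84, led by Mme, which encodes the enkephalin-degrading neprilysin (11.3), Prep (10.8) and Lnpep (9.36). All 9 genes of inhibitory G proteins (median 7.35) and all 12 of receptor kinases, arrestins and RGS proteins (6.27) were marked as well. So were all 12 downstream channels and cyclases (6.31) and all 12 transcription factors known from peptide gene control (5.72). The medians of these later lists lay below that of all marked protein-coding genes, 8.84. Across the 6 lists the lowest start fold was 2.21, at Gnb5. Among G protein subunits the highest folds were 11.8 at Gnai3, 9.56 at Gnai1 and 9.37 at Gng2. Among regulators they were 13.8 at the receptor kinase gene Grk5, 9.55 at Rgs7 and 9.05 at Rgs9. Downstream they were 11.5 at Prkar2b and 9.80 at Prkaca, which encode subunits of protein kinase A, and 10.2 at Kcnj6, a subunit of the potassium channels these receptors open. Among transcription factors they were 11.4 at Atf2 and at Creb1 and 11.1 at Crem, all of which bind cyclic AMP response elements.

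Of 30 relatives of the members in 2 further lists, 25 were marked, all at lower folds than Oprm1 and Oprk1. Of 10 related receptor genes (somatostatin, galanin, melanin-concentrating hormone and neuropeptide B/W receptors), 9 were marked with a median fold of 5.81, from 3.19 at Sstr3 to 7.90 at Sstr4. Mchr1 had 7.08 and Npbwr1 6.30, and Galr2 had no start peak. The 4 opioid receptor genes had a median of 9.32. Oprm1 and Oprk1 lay above the range of those relatives, and Oprd1 (7.42) and Oprl1 (4.97) lay inside it. Of 20 other hypothalamic peptide precursors, 16 were marked with a median of 4.08, beside 4.61 for the 3 opioid precursors. Agrp had 9.70, Tac1 6.94 and Crh 6.36, the highest of that list, and Pmch, Pomc, Tac2 and Vip had no peak within 1 kb of a listed start. Agrp, Crh, Grp, Npbwr1, Sstr1, Sstr5, Galr1 and Galr3 had no listed start and were read at either end of the span. These folds and both list medians therefore mix the rules. Pomc, the precursor of the opioid peptide beta-endorphin, had 5 peaks in its window with a highest fold of 14.8, none within 1 kb of a listed start. Whether these peaks, or those within 1 kb of an end of Agrp, lie in or at other genes was not examined.

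**Figure D4:**
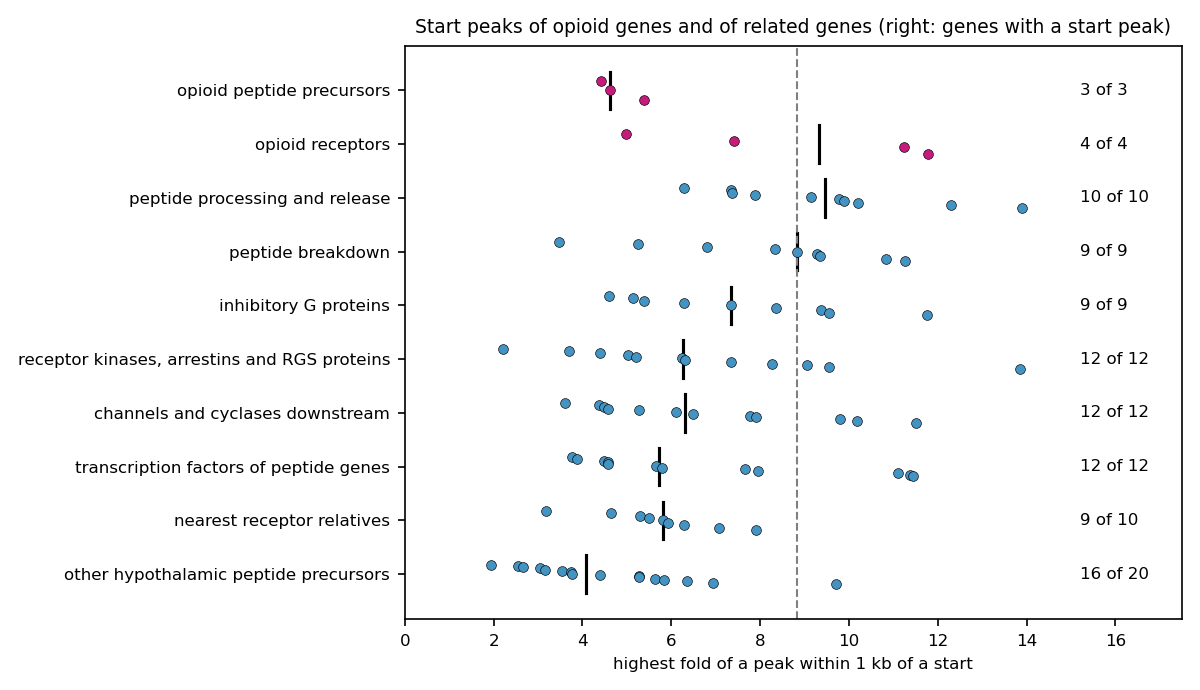
Highest fold of a peak within 1 kb of a start (or of an end) for each marked gene, by list, with the opioid genes in the upper pair of rows. Black bars are list medians, the dashed line is the median of 8.84 over all marked protein-coding genes, and the counts on the right give marked genes of all genes in the list.

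Markers of the tissue and of its neighbours were read by the same rule, which marks 68.7% of all protein-coding genes. For hypothalamus, 8 of 9 markers had a start peak, a share not far from that background for so short a list, with folds of 2.07 at Six3 to 8.61 at Rax, and Pomc had none there. All 6 striatal markers had one (3.22 to 9.05, with Drd2 at 8.16 and Drd1 at 8.09), as did 4 of 4 thalamic markers, against 0 of 6 pituitary markers. These lists are shorter still, and their shares were not tested against the background or against each other. Penk, Pdyn, Oprm1 and Oprd1 are also known for high expression in striatum. What part other brain regions, or any cell type, had in the peaks at these genes was not tested, and a bulk list cannot tell a mark in few cells from a weak mark in many.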

How the data were processed

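The deposited list is in narrowPeak form without a header, and columns were read by their order. The authors deposited, per peak, a score, a fold ratio (column 7), a −log10 p, a −log10 q (column 9) and a summit offset. The score and the −log10 p were not used. Build mm10 and, in no stated role, STAR 2.7.10a, BWA 0.7.17, MACS2, UMI-tools 1.1.4 and cutadapt 4.5 are listed in the submitters' processing notes. How replicates were combined, and the settings of the caller, were not given in the sources used here.

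Gene spans came from a RefSeq table of GRCm38.p6, the assembly behind mm10, and transcript starts and sequences from a RefSeq promoter table (250 bases before to 50 after a start). Starts were matched for 17492 of 21887 protein-coding genes. Coordinates are 1-based. A peak counted with an overlap of 1 bp. Percentiles are shares of genes or peaks with a lower value. Python 3.11.15, numpy 2.4.6 and pandas 2.3.3 were used, and the overlap code was tested on simulated data.

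Members and lists were chosen with earlier results of these data known. Named genes are the 7 members with their leading peaks, genes in their windows that share peaks, and in each list the 3 marked genes of highest fold and those without a start peak. Marker lists are given by range, 1 of them is not reported here, Zfp395, Rgs19 and Sstr3 were named after their values were seen, and not every gene under the rule is named. The alternatives changed the overlap rule, the peak threshold, the flank, the start window and the ownership of a peak.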

Additional observations from a re-analysis of the deposited data

How the results depend on the processing

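The calls at gene starts changed little. With a start window of 500 or 2500 bp, with summits in the window, and with peaks of at least the median −log10 q or in the top quartile by fold, all 7 members kept a start peak. With at least 50% of a peak required in the window, 6 did, without Pnoc, whose peak is wide. With either end of the span in place of listed starts, an alternative added after seeing the data, 6 did, without Oprm1, whose marked start is internal. The number of peaks was less stable: 54 became 34 without flanks, 29 among peaks with at least the median −log10 q and 17 among peaks in the top quartile by fold. It became 34 where a peak was kept only with its summit nearer to the member than to any other protein-coding gene. The median per locus of 5 became 3 without flanks, 10 with 50 kb and 2 with the top quartile by fold. The median share covered, 6.50%, became 10.2% without flanks, 11.6% with 10 kb and 4.03% with the top quartile by fold. Oprm1 kept 6 of its 20 peaks under the nearest-gene rule. That rule dropped 12 peaks in the spans of both Oprm1 and Ipcef1, where the distances tie. Of the 94 related genes, 74 to 90 had a start peak, against 89. For single genes, the number of peaks moved by over 1.5 times in 17 of 56 comparisons and the percent covered in 16 of 35, so the densities of single genes depend on these choices. The highest fold moved in 2 of 56, at Penk without flanks (4.43) and at Pnoc with 50 kb (8.45). The latter is the fold at an end of Zfp395, which the wider window took in. No paired analysis was possible because the list gives 1 value per peak for the 3 bulk samples together. For the same reason no replicate could be left out in turn, and what depth limits cannot be computed without read counts.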

Other observations

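The peak next to Oprk1 on its higher side, 325920 bp away, lay over an end of Npbwr1, a receptor gene for neuropeptides B and W and a relative of the opioid receptors. It was 2386 bp wide with a fold of 6.30 and a −log10 q of 65.4 (chr1:5915452-5917837). It was also the only peak in the window of that gene.

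Fold values in the list tended to fall on a grid. Of all peaks, 32.6% had a fold that was a whole multiple of 0.0722 within 0.02 of a step, where that tolerance alone would take in 4% of evenly spread values. At the opioid loci this held for 25 of 54 peaks, of which 18 were among the 20 at Oprm1, and for none at Oprk1, Oprl1 or Pdyn. Pairs of Oprm1 peaks had the same fold and −log10 q, 3.25 with 9.76 and 3.32 with 10.3. Among the 18 Oprm1 peaks on the grid, folds that differ by less than 1 step cannot be ordered. What a step counts is not known here.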
